A study of Mus musculus with 2 samples.

Results

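The genes of lipid droplet coats, intracellular lipolysis and fatty acid uptake were examined in gastrocnemius muscle after ablation of the coactivator PGC-1β in myofibres. The group holds 10 genes, chosen by name for these roles, out of 19936 named nuclear genes on the arrays. Plin2, Plin3, Plin4 and Plin5 encode perilipins that coat the droplet, Pnpla2, Lipe and Mgll encode lipases, Abhd5 encodes an activator of lipolysis, and Lpl and Cd36 act in the uptake of fatty acids. Each gene was measured by 1 probe set annotated to it alone, so that 10 of 35556 probe sets were concerned, and none was left out.

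Muscle fibres store triglycerides in lipid droplets, many of which lie against mitochondria. Lipolysis proceeds in steps: the adipose triglyceride lipase (Pnpla2), with its activator CGI-58 (Abhd5), removes the first fatty acid, the hormone-sensitive lipase (Lipe) acts on the diglyceride, and the monoglyceride lipase (Mgll) releases the last fatty acid from glycerol. Perilipins control the access of these lipases to the droplet, and perilipin 5 (Plin5), which is abundant in oxidative tissues, also tethers droplets to mitochondria. Fatty acids enter the fibre from circulating triglycerides split by lipoprotein lipase (Lpl) at the capillary wall, with the help of the scavenger receptor CD36. Several of these genes are known targets of peroxisome proliferator-activated receptors (PPARs), nuclear receptors that PGC-1 proteins can coactivate.

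The comparison is of 2 Affymetrix arrays, 1 for each genotype, each with RNA from gastrocnemius muscle of 3 pooled C57BL/6 mice. Male mice of both genotypes carried floxed PGC-1β alleles (PGC-1β L2/L2), were given a daily dose of 1 mg tamoxifen from the age of 7 weeks on 5 days, and were analysed at 8 weeks of age, 1 week after the last dose. The PGC-1β(i)skm-/- mice also carried the HSA-Cre-ERT2 transgene, a tamoxifen-dependent recombinase driven by the human skeletal actin promoter and active in myofibres, whereas the control mice lacked it. GEO's labels name the control genotype wild-type, and the floxed alleles and tamoxifen of the controls come from the study's methods. An effect of the transgene cannot be told apart from that of the deletion. The question is whether the genes that store, release and take up fatty acids in muscle differ between these genotypes.

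Values are log2 signals computed by RMA, and a difference is the mutant minus the control log2 signal. With a single array per genotype there was no replicate check, no test was made, and every value is limited in precision by the number of arrays. Following the study's methods, a ratio of mutant to control of 0.8 or less, or of 1.2 or more, is used here as a rule of size. The targeted gene, Ppargc1b, had log2 signals of 7.87 in the control pool and 7.06 in the mutant pool. Myofibre markers identified the tissue, with log2 signals from 10.62 to 13.88 in control and from 10.58 to 13.91 in mutant muscle, and a median difference of 0.02 over 12 genes. The log2 of their summed signal was 16.82 in control and 16.83 in mutant muscle. In whole muscle, fewer cells of a type and less RNA per cell cannot be told apart.

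Of the 10 genes, 8 had a lower and 2 a higher signal in PGC-1β(i)skm-/- muscle, and all differences were small. The ratios lay between 0.863 for Mgll and 1.06 for Plin2, and the median log2 difference was −0.07, beside 0.00 over all named nuclear genes. No member had a ratio of 0.8 or less, a size reached by 0.652% of all named nuclear genes, and none had a ratio of 1.2 or more, reached by 1.64%. There was also none at 1/1.2 or less, the mirror image of the upper threshold, a size reached by 1.69%. At a weaker size, a ratio of 1/1.1 or less, there were 4 members, Mgll, Plin5, Pnpla2 and Abhd5, against 10.1% of all genes. All members had a mean log2 signal above 7, and among the 8205 genes at or above that signal 10.9% were at 1/1.1 or less. Signals below those of the control were also common among these brighter genes, at 56.4%, compared with 50.2% of all genes. No member reached a ratio of 1.1 or more, as 10.5% of all genes did, and as only 508 of the 8205 brighter genes did.

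**Figure D1:**
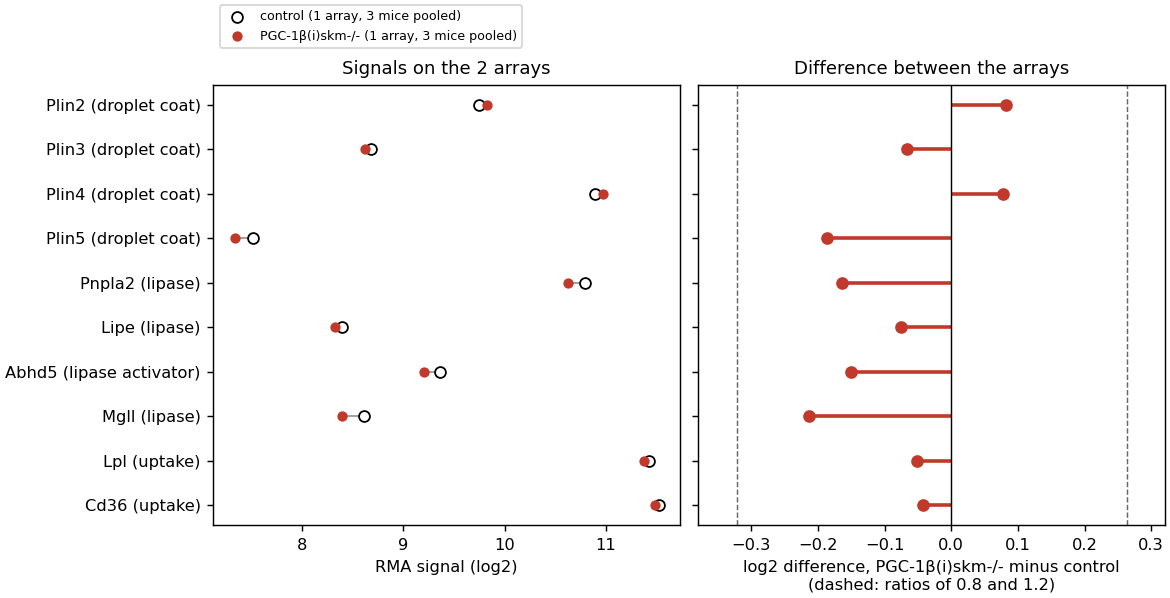
Left, RMA log2 signal (horizontal axis) of each gene (vertical axis, with its role) on the control array (open circles) and on the PGC-1β(i)skm-/- array (red); right, the difference of both, mutant minus control, with dashed lines at ratios of 0.8 and 1.2. Signals compare the arrays within a gene and not 1 gene with another. Plin2 and Plin4 lie right of 0, the other 8 genes lie left of it, and none crosses a dashed line.

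The genes of the lipolytic cascade were all lower on the mutant array, with a median log2 difference of −0.16 over the 3 lipases and their activator. A lower signal was found for 50.2% of all genes and 56.4% of the brighter ones, and the shared direction of these 4 genes was not tested. Mgll, which completes lipolysis and also degrades the endocannabinoid 2-arachidonoylglycerol, had log2 signals of 8.61 in the control pool and 8.40 in the mutant pool. Its difference of −0.21, or 13.7% less signal, was the largest of the 10, and 3.52% of all genes had a difference as low or lower. Pnpla2, the lipase of the first step, had log2 signals of 10.79 and 10.63. This is a difference of −0.16, or 10.8% less signal, and 6.80% of all genes were as low. Abhd5, which binds the Pnpla2 protein and activates it, had log2 signals of 9.36 and 9.21 and a difference of −0.15, or 9.89% less. Enzyme and activator thus stood at nearly the same difference. Lipe, the hormone-sensitive lipase, differed less, with log2 signals of 8.40 and 8.33 and a difference of −0.08. Of all genes, 22.6% had a difference as low as that of Lipe.

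The perilipins differed in direction. Plin5, the coat protein of droplets in oxidative tissues, had log2 signals of 7.52 in the control pool and 7.34 in the mutant pool, a difference of −0.19 or 12.1% less signal. Of all genes, 4.98% had a difference as low. Plin2, the coat that is found on droplets of most cell types and is stabilized by them, had log2 signals of 9.75 and 9.83, a difference of 0.08. Plin4, a perilipin of muscle and adipose tissue that covers nascent droplets, had log2 signals of 10.89 and 10.97 and a difference of 0.08 as well. These are the only members with a higher signal in the mutant, and 21.5% and 22.6% of all genes had a difference as high. Plin3, an exchangeable coat protein of many tissues, had log2 signals of 8.69 and 8.62 and a difference of −0.07. Plin4 and Plin5 are immediate neighbours in the RefSeq annotation of GRCm38.p6, and their differences had opposite signs.

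The uptake genes were close to equal on both arrays. Lpl, the enzyme that frees fatty acids from circulating lipoproteins, had log2 signals of 11.42 in the control pool and 11.37 in the mutant pool, a difference of −0.05. Cd36, the fatty acid receptor of the sarcolemma, which capillaries and macrophages also express, had log2 signals of 11.52 and 11.48, a difference of −0.04. Differences as low as these were found in 30.4% and 33.4% of all genes.

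**Figure D2:**
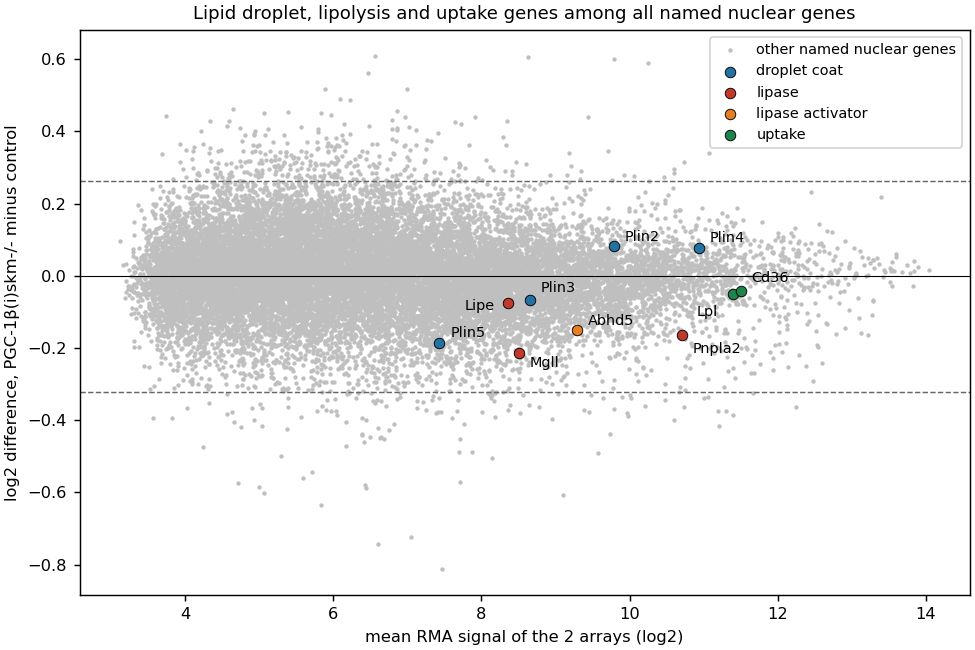
Each point is 1 named nuclear gene, at the mean RMA log2 signal of both arrays (horizontal axis) and the mutant minus the control log2 signal (vertical axis). The 10 genes are coloured by role, and dashed lines mark ratios of 0.8 and 1.2. Mgll, Plin5, Pnpla2 and Abhd5 lie in the lower part of the grey cloud, between −0.21 and −0.15, and no member lies beyond a dashed line.

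The promoters of the 4 genes with the lowest differences and of Plin2, with the highest, are shown because PPARs and the estrogen-related receptors, partners of PGC-1 proteins, bind DNA elements built on the hexamer AGGTCA. Each sequence is the 250 bases before the most upstream RefSeq start of the gene in GRCm38.p6, written 5′ to 3′ on the strand of the gene. Capitals mark AGGTCA, or TGACCT where it lies on the opposite strand.
Mgll, chr6:88724162-88724411, plus strand: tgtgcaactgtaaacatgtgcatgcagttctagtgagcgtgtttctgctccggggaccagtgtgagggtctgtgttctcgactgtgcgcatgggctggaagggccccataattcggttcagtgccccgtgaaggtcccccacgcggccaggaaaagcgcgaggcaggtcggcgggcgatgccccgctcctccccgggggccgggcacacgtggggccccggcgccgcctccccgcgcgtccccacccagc
Plin5, chr17:56117549-56117798, minus strand: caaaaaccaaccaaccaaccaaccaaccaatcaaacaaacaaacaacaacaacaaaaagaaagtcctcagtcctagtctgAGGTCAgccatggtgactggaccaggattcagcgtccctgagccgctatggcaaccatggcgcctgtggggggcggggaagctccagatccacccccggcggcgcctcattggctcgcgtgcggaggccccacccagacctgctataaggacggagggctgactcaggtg
Pnpla2, chr7:141454938-141455187, plus strand: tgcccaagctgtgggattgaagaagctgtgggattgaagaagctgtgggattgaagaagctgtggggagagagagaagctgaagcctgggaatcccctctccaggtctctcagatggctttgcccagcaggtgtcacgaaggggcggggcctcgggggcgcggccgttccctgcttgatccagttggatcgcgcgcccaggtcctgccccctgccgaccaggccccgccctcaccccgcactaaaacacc
Abhd5, chr9:122351366-122351615, plus strand: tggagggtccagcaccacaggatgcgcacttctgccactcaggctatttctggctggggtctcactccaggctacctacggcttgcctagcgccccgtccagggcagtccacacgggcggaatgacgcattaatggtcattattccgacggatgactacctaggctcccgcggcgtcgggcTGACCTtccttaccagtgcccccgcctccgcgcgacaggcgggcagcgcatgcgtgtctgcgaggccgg
Plin2, chr4:86670060-86670309, minus strand: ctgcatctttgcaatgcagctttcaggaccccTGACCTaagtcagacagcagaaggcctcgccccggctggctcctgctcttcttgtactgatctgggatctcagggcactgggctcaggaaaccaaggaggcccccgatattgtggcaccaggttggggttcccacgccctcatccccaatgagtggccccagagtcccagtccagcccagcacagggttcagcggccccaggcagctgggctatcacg
The hexamer was found in 4 of the 9 members with an entry in the promoter table, namely Plin2, Plin5, Abhd5 and Cd36, and in 13.8% of 27026 promoters of this length, taken as 1 per RefSeq gene in the table. Lpl had no entry. In Plin5 the match lies at −170 to −165 from the start, in Abhd5 at −69 to −64 on the opposite strand, and in Plin2 at −218 to −213 on the opposite strand. Genes with a match thus include 2 with a lower signal at a ratio of 1/1.1 or less (Plin5 and Abhd5), Plin2 with a higher one, and Cd36 with a difference near 0. The extended element TCAAGGTCA, typical of estrogen-related receptors, was found in none of the 9 and in 0.366% of all promoters. The direct repeat AGGTCANAGGTCA, a form of the PPAR element, was found in none of the 9 and in 0.0370% of all promoters. Both strands were searched, and each of these longer elements contains the hexamer. A match is a description of these letters, and the absence of a match concerns this window alone. The promoters of Mgll and Abhd5 held 23 and 22 CpG dinucleotides, against 11 for Plin5, 12 for Pnpla2, 6 for Plin2 and a median of 6 over all promoters.

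Further proteins of the droplet had no common direction. Of 15 genes, 8 were lower and 7 higher, with a median log2 difference of −0.02 and no ratio past 0.8 or 1.2. Bscl2, encoding seipin, which shapes droplets as they form at the endoplasmic reticulum, had log2 signals of 8.87 and 8.99, a difference of 0.12. Tmem159, encoding the seipin partner promethin, had a difference of 0.11. Hsd17b13 had a difference of −0.14, with a dim signal of 4.72 in control. Plin1 and Cidec, coat proteins of the adipocyte droplet, had differences of 0.08 and −0.05.

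Of 15 measured regulators of lipolysis, 7 were lower and 8 higher, with a median of 0.02. G0s2, which encodes an inhibitor of the Pnpla2 protein, had log2 signals of 6.67 and 6.68, a difference of 0.02. Prkar2b, a regulatory subunit of protein kinase A, had log2 signals of 5.60 and 5.97, a difference of 0.37 and a ratio of 1.29, and was the only gene of this list past either threshold. Pde3b, the phosphodiesterase by which insulin restrains lipolysis, had log2 signals of 5.80 and 5.61, a difference of −0.18. Both are dim probe sets, with mean log2 signals below 6. Ces1d, a carboxylesterase with triglyceride lipase activity, had log2 signals of 9.15 and 9.32, a difference of 0.17. The β-adrenergic receptors were not analysed here.

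Among 16 genes of triglyceride synthesis, 9 were lower and 7 higher, with a median of −0.03 (−0.06 without those below a mean log2 signal of 7). Both enzymes of the last step were among the lower ones. Dgat1 had log2 signals of 7.95 and 7.70, 15.4% less signal, and Dgat2 had 10.10 and 9.94, 10.4% less. Gpat3, a glycerol-3-phosphate acyltransferase, had 7.39 and 7.60, a difference of 0.21. No gene of this list had a ratio past 0.8 or 1.2.

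For fatty acid uptake and activation beyond Cd36, 13 of 19 measured genes were lower, against 50.2% of all genes and 56.4% of the brighter ones. The median was −0.02, and no gene of this list passed either threshold. Slc27a1, the fatty acid transport protein of muscle, had log2 signals of 9.81 and 9.66, a difference of −0.15. Got2, known in the mitochondrion as an aminotransferase and at the plasma membrane as a fatty acid binding protein, had 12.98 and 12.83, a difference of −0.14 (−0.13 for its other probe set). Fabp3, the cytosolic fatty acid binding protein of muscle, had 12.19 and 12.08, a difference of −0.10 (−0.13 for its other probe set). Slc27a3 had a difference of −0.25, with a dim signal of 5.24 in control. Acsl1, the main acyl-CoA synthetase of muscle, was not analysed here.

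For the handling of lipoprotein lipase, 9 of 15 measured genes were lower, against 50.2% of all genes and 56.4% of the brighter ones. The median was −0.02. Without the genes below a mean log2 signal of 7 this median was 0.03. Lmf1, which acts in the maturation of lipases in the endoplasmic reticulum, and Lmf2 had differences of −0.15 and −0.14. Gpihbp1, which anchors the Lpl protein to capillary endothelium, had 8.57 on both arrays, and Angptl4, which encodes an inhibitor of the Lpl protein, had 7.03 and 6.92, a difference of −0.10. Apoa5 had a difference of 0.16, at a control log2 signal of 6.22.

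Mitochondrial fatty acid oxidation, the pathway that burns the released fatty acids, had a median difference of −0.13 over 24 measured genes, beside −0.07 for the 10 genes of storage, release and uptake. Of its genes, 23 were lower, against 50.2% of all named nuclear genes and 56.4% of the brighter ones. A ratio of 1/1.1 or less was found for 11, against 10.1% and 10.9%, and a ratio of 0.8 or less for 1, Acadvl, against 0.652% of all genes. Etfdh and Decr1 had differences of −0.25 and −0.23. The study itself reports, by RT-qPCR in this muscle, decreases for many nuclear genes of mitochondrial energy metabolism. From fatty acid oxidation it measured Acadvl and Acadm in this way, at this age. Cpt1b, which also belongs to this pathway, was not analysed here. The values of Mgll (−0.21), Plin5 (−0.19), Pnpla2 (−0.16) and Abhd5 (−0.15) lie within the range of this pathway, from −0.33 to 0.05, as do the other lower members, and those of Plin2 and Plin4 lie above it. The difference between both groups was not tested.

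Of 12 PPARs, related receptors and partner proteins measured, 8 were lower, with a median of −0.06. Besides Ppargc1b, the largest differences were those of Esrrb (−0.22, with a dim signal of 5.88 in control) and Esrra (−0.16, from 8.28 to 8.13). For the estrogen-related receptors, the study itself reports similar transcript levels in both genotypes, in this muscle and at this age. Ppard, the PPAR of muscle that responds to fatty acids, had log2 signals of 9.17 and 9.10, a difference of −0.08. Of 17 measured PPAR target genes of muscle, 14 were lower and 3 higher, with a median of −0.10 and Acadvl the only ratio past a threshold. A lower signal was found for 50.2% of all named nuclear genes and 56.4% of the brighter ones. Pdk4, which was named after its value was seen, counts as lower with a log2 signal of 13.20 on both arrays. Acadm, the medium-chain acyl-CoA dehydrogenase, had a difference of −0.20. Of these 17 genes, 7 are also in the list of fatty acid oxidation. A mean log2 signal below 6 was found for 3, the higher Fgf21 and Acot1 and the lower Creb3l3. None of the 10 members is in this list, although several of them are PPAR targets. Of the 10 members, 8 were lower and 2, Plin2 and Plin4, higher.

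**Figure D3:**
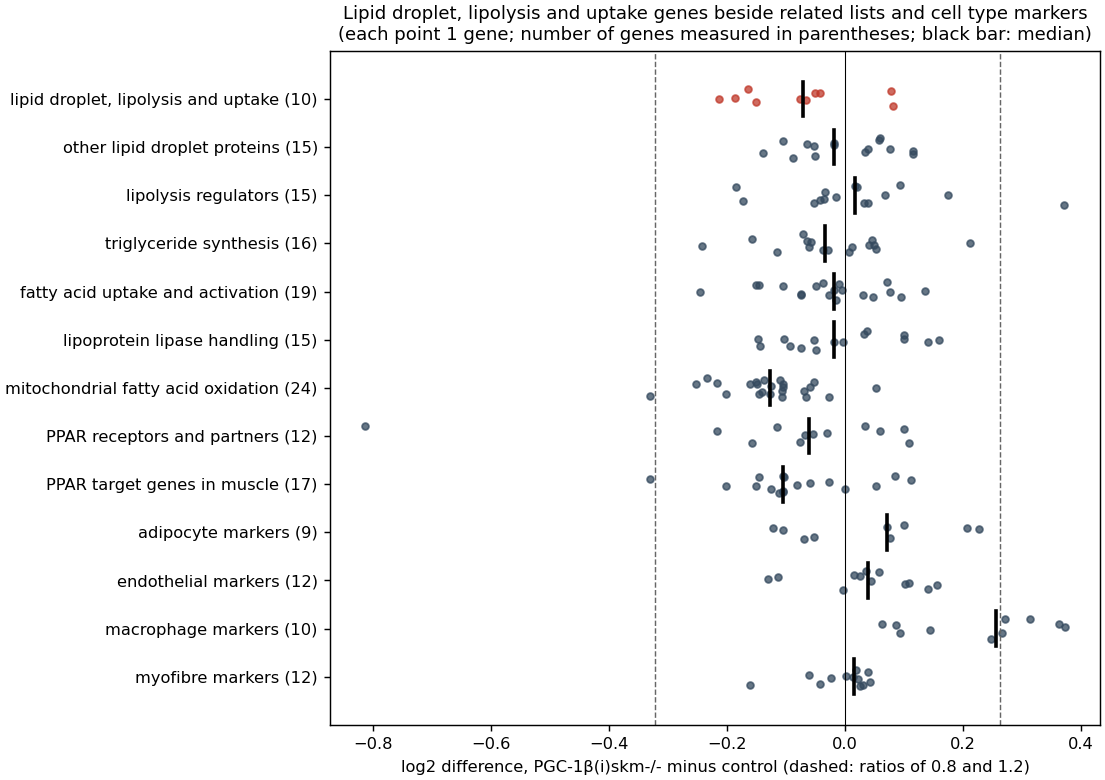
Points give the mutant minus the control log2 signal (horizontal axis) for the genes of each named list (vertical axis, with the number measured); a black bar is the median, and dashed lines stand at ratios of 0.8 and 1.2. The median of the lipid droplet, lipolysis and uptake genes (red) is −0.07, between −0.13 for fatty acid oxidation and 0.02 for lipolysis regulators, and that of macrophage markers is 0.26.

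Adipocytes, capillary endothelium and macrophages also express many of the 10 genes, and their markers are given here beside them. For comparison, 49.6% of all named nuclear genes and 43.5% of the brighter ones had a higher signal in the mutant. Of 9 measured adipocyte markers, 5 were higher and 4 lower, with a median of 0.07, and their summed signal on the mutant array was 1.04 times that of the control. Adipoq, the adipocyte hormone adiponectin, had log2 signals of 7.38 and 7.31, and was named after its value was seen. Retn and Lep had differences of 0.23 and 0.21, Lep with a dim signal of 5.61 in control, and Thrsp of −0.12. The range of adipocyte marker signals was 5.06 to 10.72 in control and 4.96 to 10.79 in mutant muscle. Of 12 endothelial markers, 9 were higher and 3 lower, with a median of 0.04, a summed signal of 1.04 times the control, and signals from 7.82 to 10.29 and from 7.71 to 10.45. Cdh5 had a difference of 0.16, Tek of 0.14 and Emcn of −0.13. All 10 macrophage markers were higher, 5 of them with a ratio of 1.2 or more, against 1.64% of all genes. Their summed signal was 1.19 times that of the control, with signals from 5.45 to 9.01 and from 5.54 to 9.26, and the median difference was 0.26. C1qa had a ratio of 1.29, C1qb of 1.29, Mrc1 of 1.24 and C1qc of 1.21, and Csf1r, a receptor for a macrophage growth factor, had a log2 difference of 0.27. C1qa, C1qb and C1qc encode the subunits of complement C1q, and Mrc1 encodes a mannose receptor. No marker of these cell types was at 0, since RMA signals have no true zero. The part of these cells in the values of Plin2, Lpl, Cd36 and the other members was not tested. Among the myofibre markers, the largest differences were those of Myh1 (−0.16), Mb (−0.06) and Myh7 (−0.04). By RT-qPCR, the study saw no difference in myosin heavy chain transcripts between the genotypes, in this muscle and at this age.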

How the data were processed

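RNA of gastrocnemius muscle from 3 pooled mice per genotype was hybridized to Affymetrix Mouse Gene 1.0 ST arrays, starting from 150 ng of total RNA. The authors extracted intensities with GeneChip Command Console 3.2 and deposited log2 signals computed by RMA in Expression Console 1.1 (background correction, quantile normalization and median polish). Quantile normalization removes a shift shared by all genes, and RMA compresses differences of dim probe sets. No measure of detection was used. For the probe sets, a genome build is not named in the sources used here.

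Log2 differences were then computed per gene. Probe sets with 1 symbol in the platform annotation were kept (21789), with symbols updated by Entrez ID to RefSeq (GRCm38.p6; 21694 nuclear probe sets matched). For 997 genes with several probe sets, that with the highest mean was used. No filter was applied. The 10 members, the 12 other lists, which overlap in part, and the settings were chosen with earlier results of these data known. Named genes are all members, every list gene past a ratio of 0.8 or 1.2, the 3 largest differences per list and partners fixed by role. Alternatives were the mean of probe sets, probe sets of several genes, filters at mean log2 signals of 6 and 7, median centring, a loess curve (span 0.3) and other ratios. The calculation was tested on simulated data with planted differences well past both thresholds. That test checks the arithmetic and does not bear on differences as small as those of the members. Promoter sequences are from RefSeq. Python 3.11.15, pandas 2.3.3, numpy 2.4.6, statsmodels 0.14.6 and matplotlib 3.10.9 were used.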

Additional observations from a re-analysis of the deposited data

How the results depend on the processing

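Each of the 10 members has 1 probe set of its own and a mean log2 signal above 7, so that the choice of probe sets and the filters could not move its value, and subtraction of the median of all genes shifted it by less than 0.01. Subtraction of a loess curve, the one alternative that bears on the members, left the sign of each difference and placed Mgll at −0.19, Abhd5 at −0.13, Lipe at −0.06 and Plin3 at −0.05. The number of members at a ratio of 0.8 or less was 0 after loess subtraction and at 1/1.2. At 1/1.1 it was 4 without loess subtraction. With loess subtraction Abhd5, at −0.13, no longer reached 1/1.1, whereas Mgll, Plin5 and Pnpla2 still did. The number at 1.2 or more was 0 after loess subtraction and at 1.1. The median of the lipoprotein lipase handling genes, −0.02, was 0.0146 and 0.0320 among genes with mean log2 signals of at least 6 and 7 and 0.0003 after loess subtraction. That of the lipolysis regulators, 0.02, was 0.0026 at signals of at least 7, 0.0033 with probe sets of several genes and 0.0060 after loess subtraction, which also moved that of the other droplet proteins from −0.02 to −0.0053. Over all named nuclear genes, 130 had a ratio of 0.8 or less, 65 when only mean log2 signals of at least 7 were kept, 336 at 1/1.2 and 2011 at 1/1.1. Ratios of 1.2 or more were found for 327 genes, for 155 and 67 at mean log2 signals of at least 6 and 7, and for 2102 at 1.1. No paired analysis was possible because each genotype has 1 array. With 1 array per genotype, no interval for any difference can be given.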
